A study of Homo sapiens with 8 samples.

Results

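The genes of human chromosome 8 were followed, arm by arm, through 4 lines derived from A-498, an established kidney cancer cell line. A gene was a member if its Entrez identifier lay on chromosome 8 in the RefSeq annotation and its normalized read count was 10 or more in at least 2 of the 8 libraries. Of the 977 rows of the table on this chromosome, 501 were members, among 14040 genes genome-wide that passed the same minimum and were tested. The p arm, which is the short arm, was taken from its end to HGSNAT and held 167 members. The q arm, which is the long arm, was taken from SPIDR to its end and held 334. None of the 5 rows between these boundary genes passed. Of the members, 451 encode proteins and 38 are long noncoding RNAs. Of the 476 rows that were not members, 266 were at 0 in every library. Just outside the minimum, ASAH1-AS1, LOC729732 and SLC10A5 each had a second-highest value of 9.66. Just inside it, EPPK1 and SLC26A7 had a second-highest value of 10.2.

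The study asked how loss of ANXA4, the gene of annexin A4, altered the RNA of these cells. Each control line, labelled wild type, had its own non-targeting guide RNA (sgRNA-1 in control line 1, sgRNA-2 in control line 2). Line KO-1 and the line labelled KO-2 each had a guide RNA of their own against ANXA4 and were labelled ANXA4 knockout (KO). All 4 lines shared the A-498 background and were grown for 24 hours without reaching confluence, and each gave 2 libraries of polyadenylated RNA. A guide was represented by 1 line, so guide and line cannot be told apart. Whether a line was a clone or a pool is not given in the sources used here. Nothing in the labels says that the 2 libraries of a line came from separate derivations. The p-values of comparisons of lines thus measure the spread between these libraries, which may be technical. Those of KO against control with the line as a random block also take in the difference between lines of a group. They do so through 1 correlation for all genes.

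Control line 1 had 2821 and 3614 normalized counts of ANXA4, and control line 2 had 3858 and 6773. In line KO-1 the gene had 235.6 and 234.4, and in the line labelled KO-2 3433 and 4142, where its RNA was not below the control range. The protein was not measured. Depth ran from 15784890 to 22631588 reads per library. PAX8, a transcription factor of renal epithelium, ranged from 2987 to 4476 normalized counts, and KRT8 and KRT18, keratins of simple epithelium, were present in every library. CA9, a hypoxia target often high in clear-cell kidney cancer, lay between 2.07 and 24.8. CD3E of T cells, CDH5 of endothelium, HBA1 of red cells and APOA2 of hepatocytes were at 0 throughout. The other markers listed for the last 3 types were low but not absent. PECAM1 and VWF of endothelium reached 4.53 and 3.12, and HBB of red cells 0.783. ALB of hepatocytes lay between 0.783 and 9.19. The summed level of 4 leukocyte markers lay between 5.19 and 14.5 in all libraries.

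Human chromosomes have a short and a long arm joined at the centromere, and in cancers genes of an arm are often gained or lost together. In kidney cancers the p arm of chromosome 8 is known for losses and the q arm for gains. The p arm carries several candidate tumour suppressors, the receptors of the death ligand TRAIL and the growth factor receptor gene FGFR1. The q arm carries MYC, which encodes a transcription factor of growth and ribosome synthesis, and many genes that are studied beside it in tumours. Only RNA was measured, and the DNA of the lines was not examined here.

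Levels are given on the log2(normalized count + 1) scale as the level of a line minus the mean of the 4 lines. The members were chosen by their chromosome and by the minimum level, and the description by arm was selected on this relative level in these same libraries, so medians by line are descriptions and carry no test. In bulk RNA, fewer cells of a type and less RNA per cell cannot be told apart.

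Genes of the p arm were low in control line 1 and high in the line labelled KO-2. The median relative level of the 167 p arm genes was -0.48 in control line 1, 0.072 in control line 2, 0.076 in line KO-1 and 0.34 in the line labelled KO-2. Computed within each set of same-numbered libraries, the medians were -0.49 and -0.49 in control line 1 and 0.36 and 0.33 in the line labelled KO-2. The medians of the 2 replicates thus lay close together, with no overlap between these lines and the other 2. In control line 1, 155 of 167 genes (92.8%) lay below the mean of the lines, against 49.3% of all genes tested. In both replicates 145 genes (86.8%) did so, against 36.1% of all genes tested. In the line labelled KO-2, 147 genes (88.0%) lay above the mean, and 130 (77.8%) did so in both replicates, against 36.5% of all genes tested.

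Genes of the q arm were high in line KO-1 and close to the mean in the other lines. Their median relative level was 0.24 in line KO-1, with 0.25 and 0.24 in its replicates. The other medians were -0.082 in control line 1, -0.059 in control line 2 and -0.10 in the line labelled KO-2. In line KO-1, 284 of 334 genes (85.0%) lay above the mean, and 244 (73.1%) did so in both replicates, against 38.0% of all genes tested. The median of the p arm minus that of the q arm was -0.40 in control line 1, 0.13 in control line 2, -0.16 in line KO-1 and 0.44 in the line labelled KO-2. The arms therefore differed from each other in size and sign from line to line.

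**Figure D1:**
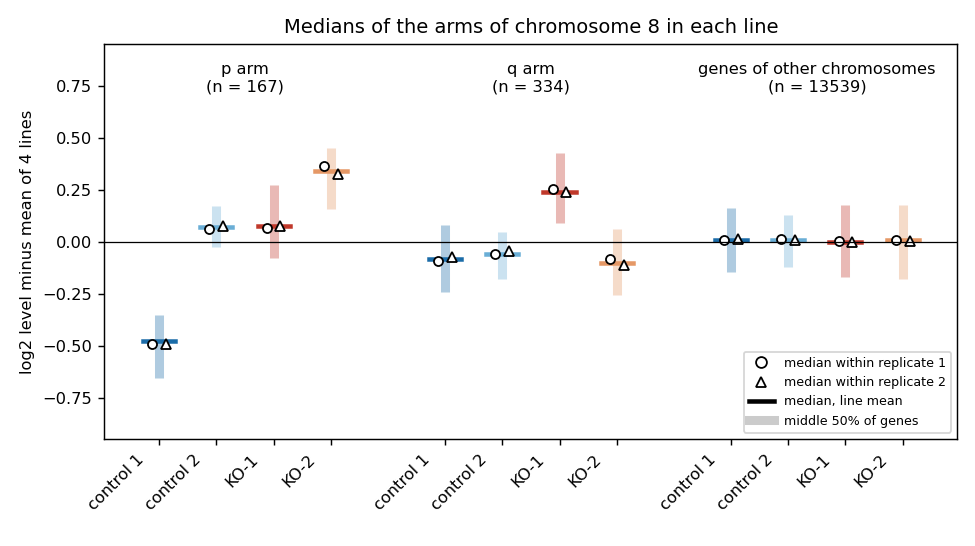
Median log2 level minus the mean of the 4 lines (y axis) for the p arm (167 genes), the q arm (334 genes) and the genes of other chromosomes, by line (x axis). Bars mark the median of the line mean, wide bands the middle 50% of genes, circles and triangles the medians within replicate 1 and replicate 2. The p arm sits at -0.48 in control line 1 and at 0.34 in the line labelled KO-2, the q arm at 0.24 in line KO-1, and the other chromosomes between -0.0022 and 0.0085.

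The same order appeared in the share of all reads that fell on each arm. Reads on p arm rows made up 0.688% and 0.719% of the reads in control line 1 and between 0.894% and 1.12% in the other 6 libraries. Reads on q arm rows made up 3.46% and 3.47% in line KO-1 and between 2.30% and 2.70% in the other 6. Neither pair of libraries overlapped the rest. Wilson 95% intervals of these shares reached at most 0.00864 percentage points to either side, which covers counting error only since the reads carried no molecular identifiers. The lowest q arm share was that of replicate 2 of the line labelled KO-2. Mitochondrial reads made up 13.8% of its reads and 4.67% to 9.05% in the other libraries. Its p arm share was 0.991%. Whether the mitochondrial reads bear on its q arm share was not tested.

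Single genes varied around their arm. Within control line 1, 148 of the 167 p arm genes (88.6%) lay within 0.5 of the arm's median. For line KO-1 and the q arm, 299 of 334 (89.5%) did. These shares were near those of all genes tested around the genome-wide median, 86.9% and 88.4% for the 2 lines. When the p arm genes were split into 3 groups of low, middle and high mean level, the median of control line 1 was -0.45, -0.54 and -0.47. For 3 such groups of the q arm, the median of line KO-1 was 0.21, 0.22 and 0.27. The 11 long noncoding RNAs of the p arm had a median of -0.27 in control line 1 and 0.21 in the line labelled KO-2, beside -0.49 and 0.34 for the 152 protein-coding genes. The 27 long noncoding RNAs of the q arm had a median of 0.24 in line KO-1, the same as the protein-coding genes of that arm.

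The level kept its sign along the p arm in control line 1 and the line labelled KO-2, and along the q arm in line KO-1. When the p arm was cut into blocks of 40 members in gene order, the 4 full blocks had medians from -0.50 to -0.45 in control line 1 and from 0.29 to 0.36 in the line labelled KO-2. The first block ran from RPL23AP53 to CNOT7 and the fourth from PPP2CB to SLC20A2. The 8 full blocks of the q arm had medians from 0.21 to 0.31 in line KO-1. The last 14 genes of the q arm, LRRC14 to C8orf33, had a median of 0.13 there. Running medians over 21 members lay below 0 in all 147 windows of the p arm in control line 1 and above 0 in all 147 in the line labelled KO-2. On the q arm they lay above 0 in all 314 windows in line KO-1, from 0.081 around MYBL1 to 0.45 around ST3GAL1. In control line 1 the q arm was less even, with running medians from -0.37 around TRPA1 to 0.11 around RBM12B-AS1.

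The level stepped at the centromere. The last 20 members of the p arm, TM2D2 to HGSNAT, had medians of -0.50, 0.092, 0.13 and 0.28 in control line 1, control line 2, line KO-1 and the line labelled KO-2. The first 20 of the q arm, SPIDR to CHCHD7, had medians of -0.14, -0.0091, 0.25 and -0.15. HGSNAT, the p arm boundary gene, encodes a lysosomal enzyme that acetylates heparan sulfate during its breakdown. It had 654 and 562 normalized counts in control line 1, 871 and 980.0 in control line 2, 1011 and 951 in line KO-1, and 1178 and 1309.8 in the line labelled KO-2. Control line 1 was lowest and the line labelled KO-2 highest, and neither overlapped another line. SPIDR, the q arm boundary gene, encodes a scaffold of homologous recombination repair. It had 704 and 685 in control line 1, 743 and 934 in control line 2, 890.1 and 845 in line KO-1, and 794 and 675 in the line labelled KO-2. For SPIDR the line labelled KO-2 overlapped both control lines, and line KO-1 lay above it and above control line 1.

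**Figure D2:**
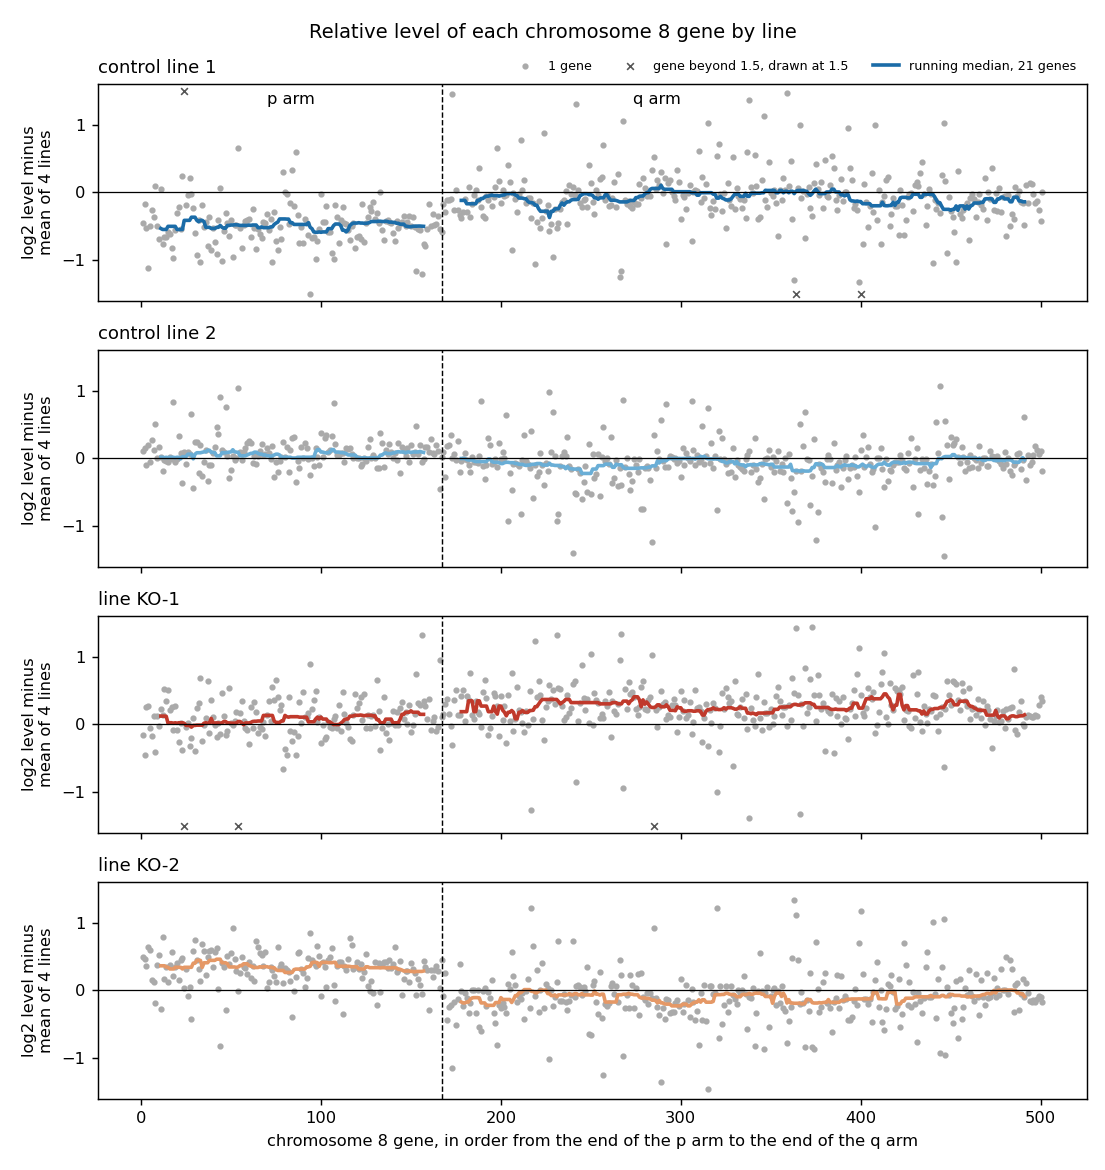
Level of each of the 501 members, as log2 level minus the mean of the 4 lines (y axis), in gene order from the end of the p arm to the end of the q arm (x axis, rank of the gene), with 1 panel per line. Grey points are genes, crosses are genes beyond 1.5 drawn at 1.5, coloured lines are running medians over 21 members, and the dashed line separates the arms. The running median stays below 0 over the whole p arm in control line 1, and the step at the dashed line is upward there and downward in the line labelled KO-2.

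No other chromosome, taken as a whole, had a median as far from the mean as the p arm in control line 1. The medians of the 22 other chromosomes (autosomes and X) in that line ran from -0.15 for chromosome 15 to 0.39 for chromosome 3, all above the p arm's -0.48. In the line labelled KO-2, the p arm at 0.34 lay above all 22, of which chromosome 16 was highest at 0.14. In line KO-1 the q arm at 0.24 lay above all 22, of which chromosome 9 was highest at 0.11. Other chromosomes lay further below the mean than the q arm lay above it in line KO-1, down to -0.33 for chromosome 21, and in the line labelled KO-2 the lowest was chromosome 3 at -0.31. Both arms of control line 2 lay within the range of the others, whose lowest was chromosome 16 at -0.29. These are whole chromosomes set beside arms, so their numbers of genes differ, and opposite shifts of the arms of another chromosome would not show. Chromosome 8 as a whole had medians of -0.19 in control line 1 and -0.0090 in control line 2. It had 0.20 in line KO-1 and 0.010 in the line labelled KO-2. In control line 1, chromosome 3 thus lay further from the mean than chromosome 8 as a whole.

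**Figure D3:**
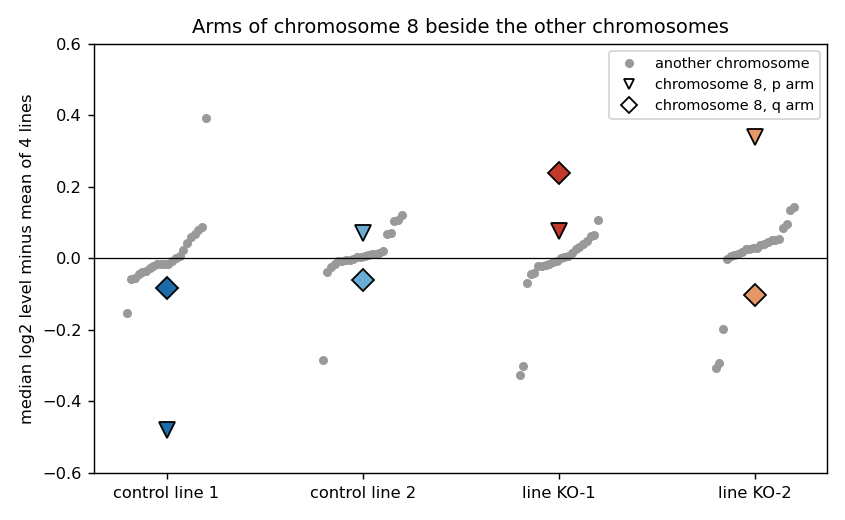
Median log2 level minus the mean of the 4 lines (y axis) in each line (x axis) for the 22 other chromosomes (grey points, in order of value) and for the p arm (triangles) and q arm (diamonds) of chromosome 8. The p arm of control line 1 (-0.48) is the lowest point of its column, and the p arm of the line labelled KO-2 (0.34) and the q arm of line KO-1 (0.24) are the highest of theirs.

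Pairs of lines gave the same picture as fold differences. Over p arm genes the median ratio of control line 2 to control line 1 was 1.48. In 135 of the 167 genes (80.8%) both libraries of control line 2 lay above both of control line 1, beside 21.7% of all genes tested. The median ratio to control line 1 was 1.47 for line KO-1, with 133 genes wholly above (30.1% of all genes tested), and 1.78 for the line labelled KO-2, with 136 genes wholly above (25.4%). Line KO-1 and control line 2 had a median ratio of 1.00 on this arm. The line labelled KO-2 stood at 1.21 times control line 2 and 1.17 times line KO-1. On the q arm, line KO-1 stood at 1.24 times both control line 1 and control line 2. Both of its libraries lay above both of control line 1 in 204 genes (61.1%, background 30.1%) and above both of control line 2 in 191 (57.2%, background 26.0%). The line labelled KO-2 stood at 0.797 times line KO-1, with 189 genes wholly below it (56.6%, background 27.0%). Between control line 1, control line 2 and the line labelled KO-2, the q arm ratios lay between 0.959 and 1.01. These pairs share libraries and are given side by side for that reason only.

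Single genes were also tested against the mean of the 4 lines with limma over all 14040 genes, with an adjusted p under 0.05 as a call. Since this contrast chose how the members were described, the counts are given beside the background and nothing is read from them. In control line 1, 89 p arm genes were called lower and 2 higher (background 4.56% lower, 4.87% higher), and 23 q arm genes lower and 15 higher. In the line labelled KO-2, 51 p arm genes were called higher and 0 lower (background 3.78% higher, 6.63% lower), and 10 q arm genes higher and 26 lower. The 0 p arm genes called lower compare with 4 when the replicate number was a block and 0 by edgeR. In line KO-1, 45 q arm genes were called higher and 3 lower (background 3.40% higher, 2.84% lower), and 6 p arm genes higher and 5 lower. In control line 2, 5 members were called (background 1.19%): ASAH1 and SDC2 higher, and RDH10, CASC9 and SNTB1 lower, all named after their values were seen. Blocking on the replicate number gave 203 called members in place of 129 in control line 1 (background 22.0%) and 50 in place of 5 in control line 2 (background 9.26%). It gave 186 in place of 59 in line KO-1 (background 23.7%) and 200 in place of 87 in the line labelled KO-2 (background 26.9%). Leaving out replicate 1 or replicate 2 of control line 1 lowered its count to 23 or 13, and leaving out either library of line KO-1 lowered that line's count to 9 or 4. The other libraries that moved a count by over 1.5 times are named with the dependence on processing.

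The comparison that the labels state, KO against control, called 1 member among 33 genes called in all (background 0.235%). It was LRATD2, an LRAT-domain gene close to MYC on the q arm. Its normalized counts were 299 and 322 in control line 1, 548 and 555 in control line 2, 1635 and 1751 in line KO-1, and 1679 and 949 in the line labelled KO-2. All 4 KO-labelled libraries lay above all 4 controls, and replicate 2 of the line labelled KO-2 was the lowest of them. The log2 difference was 1.82 (SE 0.29, limma adjusted p 0.0352). Blocking on the replicate number gave an adjusted p of 0.0645, and no member was then called (background 0.264%). It was also not called with equal library totals. Without either library of control line 1, replicate 1 of control line 2, either library of line KO-1 or replicate 1 of the line labelled KO-2, 0 members were called, and without replicate 2 of control line 2 there were 2. Without replicate 2 of the line labelled KO-2, 1 was called.

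Across both arms the KO-labelled libraries held more genes above the controls than below. At an unadjusted p under 0.05, 111 members passed (22.2%), against 11.5% of all genes tested. They were 58 of the 167 p arm genes (34.7%) and 53 of the 334 q arm genes (15.9%). All 4 KO-labelled libraries lay above all 4 controls in 59 members (11.8%, background 5.11%) and below them in 6 (1.20%, background 5.51%). The median log2 difference was 0.43 on the p arm, 0.15 on the q arm and 0.00073 over all genes tested. The comparison depended on the lines that entered it. On the p arm the median difference to control line 1 was 0.55 for line KO-1 and 0.83 for the line labelled KO-2, and to control line 2 it was 0.0017 and 0.28. On the q arm line KO-1 differed by 0.31 from either control line, and the line labelled KO-2 by -0.016 and -0.060. These comparisons share control libraries.

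The number of members called between KO and control also depended on how the lines entered the fit. Where each line had its own mean, so that the difference between lines of a group was not part of the error, limma called 107 members (background 10.5%). With edgeR's quasi-likelihood test on recovered reads and the same design, 106 were called (94 higher and 12 lower, background 10.5% in either direction), of which 57 higher and 3 lower were on the p arm. Without the line labelled KO-2, an alternative chosen after seeing the data, 25 were called (20 higher and 5 lower, background 2.20%), among them 2 higher and 2 lower on the p arm.

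Genes of the p arm are described by function, with lists that were chosen with earlier results known. The p arm lists here and below are to be read beside the whole arm. Of all 167 p arm genes, 92.8% lay below the mean in control line 1 and 53.3% were called lower. In the line labelled KO-2, 88.0% lay above it and 30.5% were called higher, and in line KO-1 60.5% and 3.59%. List counts near these shares are those of the arm. Of 16 candidate tumour suppressors, 15 were tested, and CSMD1 was below the minimum. In control line 1, 14 of the 15 lay below the mean of the lines (median -0.45, 10 called lower, background 4.56%), and in the line labelled KO-2 14 lay above it (median 0.34, 7 called higher, background 3.78%). TUSC3, a subunit of the complex that attaches glycans to proteins, had 1595 and 1593 normalized counts in control line 1 and between 2129 and 2770.4 in the other 6 libraries, so that control line 1 lay apart. MTUS1, a microtubule-associated protein, had 387 and 249 in control line 1 and between 586 and 1141 elsewhere. SORBS3, the adhesion adaptor vinexin, had 1717 and 1860 in control line 1 and 4652 and 3480.2 in the line labelled KO-2, with the other 2 lines between them. LZTS1 ran against the arm, with 14.7 and 16.6 in control line 1 and 1.57 and 3.11 in line KO-1. Between KO and control, none of the 15 was called by limma, and the median difference was 0.43, as over the whole p arm. An unadjusted p under 0.05 was reached by 6 of the 15. It was reached by 58 of all 167 p arm genes (34.7%) and by 11.5% of all genes tested.

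The 4 TRAIL receptor genes lie side by side on the p arm. TNFRSF10A and TNFRSF10B encode the death receptors, and TNFRSF10C and TNFRSF10D decoy receptors that bind TRAIL without a complete death signal. All 4 lay below the mean of the lines in control line 1 (median -0.63, 2 called lower, background 4.56%) and above it in line KO-1 (median 0.45, 1 called higher, background 3.40%) and the line labelled KO-2 (median 0.17, none called by limma). TNFRSF10B had 2341 and 2791 normalized counts in control line 1, 3745 and 4142 in control line 2, 4065 and 5558 in line KO-1, and 3936 and 4236 in the line labelled KO-2. Control line 1 lay below the rest, and the other 3 lines overlapped. TNFRSF10D had 409 and 464 in control line 1, where control line 2 had 416 and 466, so here the control lines overlapped, below 561 to 808 in the KO-labelled libraries. Its difference between KO and control was 0.57 (SE 0.18, limma adjusted p 0.270). These genes are close relatives, and reads that match several of them could be split by the counting.

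Next to the centromere, 26 genes around FGFR1 were all tested. Every one of the 26 lay below the mean in control line 1 (median -0.46, 19 called lower, background 4.56%), and 23 lay above it in the line labelled KO-2 (median 0.33, 10 called higher, background 3.78%). FGFR1, a receptor tyrosine kinase for fibroblast growth factors, had 2370.3 and 1960.4 normalized counts in control line 1, 3051 and 2166 in control line 2, 3773 and 3308 in line KO-1, and 4703 and 3454 in the line labelled KO-2. The 2 control lines overlapped for FGFR1 and lay below both KO-labelled lines, and the difference between KO and control was 0.68 (SE 0.21, limma adjusted p 0.237). ADAM9, a membrane metalloprotease, had 7555 and 6486 in control line 1 and between 8076 and 11480 in the other libraries. PLAT, tissue plasminogen activator, stood out in line KO-1, with 1116 and 2947 beside 221 to 826 in the other 6 libraries.

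On the q arm, 29 of 31 candidate oncogenes were tested. Of all 334 q arm genes, 85.0% lay above the mean in line KO-1 and 13.5% were called higher. In the line labelled KO-2, 66.8% of them lay below it and 7.78% were called lower. In line KO-1, 26 of the 29 lay above the mean (median 0.32, 7 called higher, background 3.40%), and in the line labelled KO-2 23 lay below it (median -0.18, 5 called lower, background 6.63%). YWHAZ, a 14-3-3 adaptor of phosphorylated proteins, had 25389 and 25781 normalized counts in control line 1, 28204 and 25384 in control line 2, 33332 and 35543 in line KO-1, and 24496 and 24801 in the line labelled KO-2. Line KO-1 lay above every other library. MTDH, a membrane and RNA-binding protein studied in metastasis, had 7155 and 8368 in line KO-1, 5071 to 5668 in the controls and 3897 and 4144 in the line labelled KO-2, so that the KO-labelled lines lay on opposite sides of the controls. GRHL2 and FAM83A were below the minimum. LRATD2 was the only one of the 29 called between KO and control, and the median difference of the list was 0.12.

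Other groups of chromosome 8 genes were mixed between the arms and in direction. Of 20 genes of DNA replication, repair and cohesion, 15 are on the q arm, and 12 of the 20 lay above the mean in line KO-1 (median 0.14). PRKDC, the catalytic subunit of the DNA-dependent protein kinase, had 11829 and 11393 normalized counts in line KO-1 and 7184 and 6045 in the line labelled KO-2. The controls ran from 8035 to 10852. MCM4, also on the q arm, had 6053 and 6244 in line KO-1, which overlapped control line 2 at 6467 and 6213. The p arm genes of this list were low in control line 1: POLB, DNA polymerase beta, had 163 and 194 there and 307 to 447 elsewhere. WRN, a RecQ helicase, had 339 and 400.4 in control line 1 and 490 to 869 elsewhere. Among 14 tested translation genes, 13 are on the q arm, where 85.0% of all genes lay above the mean in line KO-1. Of the 14, 11 lay above the mean in line KO-1 (median 0.14). RPL8, a ribosomal protein, had 39859 and 36918 there and 30098 to 36879 in the other libraries, so that the lower library of line KO-1 was above the highest other library by less than its replicates differed. PABPC1, the poly(A)-binding protein, had 40515 and 35752 in line KO-1 and 20147 to 34070.0 elsewhere. Both have close copies in the genome, so their counts are uncertain.

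Of 12 genes of mitochondrial respiration and transport, 11 lay above the mean in line KO-1 (median 0.12). CYC1, cytochrome c1 of complex III, had 4181 and 4260.2 there and 2912 to 3747 elsewhere. UQCRB, also on the q arm, had 3002 and 3100.5 in line KO-1, within the 2304 to 3596 of the other libraries. VDAC3, a porin of the outer membrane encoded on the p arm, had 1465 and 1525 in control line 1 and 2240 to 2879 elsewhere. Among 15 lysosomal and proton pump genes, LAPTM4B on the q arm had 6107 and 6111 in line KO-1 and 5200.1 to 5363 in the controls. It had 4216 and 4102 in the line labelled KO-2. GGH, also on the q arm, was highest in control line 1, at 664 and 650.0, beside 487 and 516 in line KO-1. Of 18 immune and stress genes, 17 lay above the mean in line KO-1 (median 0.36, 3 called higher, background 3.40%). The q arm holds 15 of these 18 and 10 of the 12 mitochondrial genes. Of all q arm genes, 85.0% lay above the mean in line KO-1 and 13.5% were called higher. NDRG1, a stress-responsive gene of the q arm, had 9575 and 12767 in line KO-1 and 3717 to 6902 in the other libraries, with no overlap. Of 31 genes of the extracellular matrix and secreted proteins, 21 were tested, and their medians lay between -0.19 in control line 1 and 0.12 in line KO-1. CTHRC1, a secreted collagen-associated protein of the q arm, ran against its arm, with 78.2 and 65.5 in control line 1 and 10.2 and 9.34 in line KO-1. Between KO and control, limma called none of the genes of these 6 lists. An unadjusted p under 0.05 was reached by 1 of 20 replication and repair genes, 0 of 14 translation genes and 2 of 12 mitochondrial genes. It was reached by 4 of 15 lysosomal, 9 of 18 immune and stress and 7 of 21 matrix genes. The share was 11.5% of all genes tested, 34.7% of p arm genes and 15.9% of q arm genes.

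**Figure D4:**
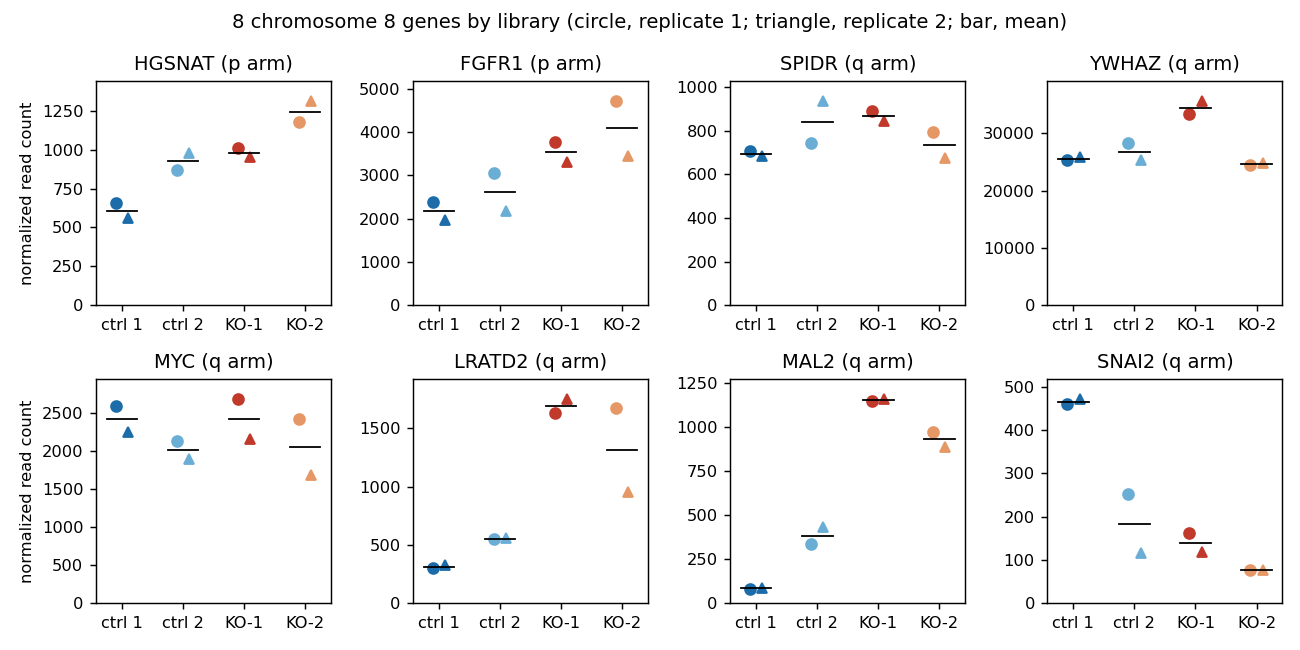
Normalized read counts (y axis, from 0) of 8 members in each line (x axis; ctrl, control). Circles are replicate 1, triangles replicate 2 and bars the mean of both. By their means, HGSNAT and FGFR1 are lowest in control line 1 and highest in the line labelled KO-2 and YWHAZ is highest in line KO-1. MYC overlaps between the lines, and LRATD2, MAL2 and SNAI2 differ between lines by more than their arm.

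A few p arm genes ran against the arm. Among the 143 with a mean count of 50 or more, 6 lay above the mean of the lines in control line 1: FAM167A, CTSB, LOXL2, STC1, NEFM and ADGRA2. LOXL2, a lysyl oxidase that cross-links collagen, had 20596 and 23023 normalized counts in control line 1, 17473 and 24783 in control line 2, 10926 and 11480 in line KO-1, and 18014 and 19992 in the line labelled KO-2. It was lowest in line KO-1, with no overlap, and an antisense transcript, LOXL2-AS1, overlaps it. CTSB, the lysosomal protease cathepsin B, had 7039 and 7251 in control line 1 and 4563 and 5284 in line KO-1, and line KO-1 overlapped the line labelled KO-2, at 5219 and 7691. These 6 genes were listed after their values were seen.

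Departures from the arm were then read in each replicate. In replicate 1 alone, the departure of a gene was its relative level minus the arm median of that line, and the 3 highest and 3 lowest genes of each line with a mean count of 50 or more were taken. Replicate 2 was read beside it, and entered the choice only through the minimum and the mean count, which were taken over all 8 libraries. This gave 24 departures in 17 genes, 22 of them on the q arm. In replicate 2, 23 of the 24 had the same sign and 10 were beyond 1 in size.

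MAL2, a membrane protein of apical transport in epithelia, departed in 3 lines. Its counts were 81.8 and 84.2 in control line 1, 333 and 432 in control line 2, 1152 and 1161 in line KO-1, and 975 and 888 in the line labelled KO-2, with no overlap between any of the lines. Its departure in control line 1 was -2.25 in replicate 1 and -2.30 in replicate 2. SNAI2, a transcriptional repressor of epithelial genes, ran the other way. It had 461 and 472 in control line 1, 252 and 116 in control line 2, 161 and 118 in line KO-1, and 75.5 and 77.3 in the line labelled KO-2. Control line 1 lay above and the line labelled KO-2 below all other libraries, while the 2 remaining lines overlapped. Between KO and control, MAL2 differed by 2.54 (SE 0.50, limma adjusted p 0.0780) and SNAI2 by -1.45 (SE 0.47, limma adjusted p 0.271), and neither was called.

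TNFRSF11B encodes osteoprotegerin, a secreted decoy receptor of the cytokine RANKL. It had 260.2 and 467 normalized counts in control line 1, 312 and 1176 in control line 2, 853 and 1623 in line KO-1, and 1751 and 2630.4 in the line labelled KO-2. In each line replicate 2 was the higher library, and the line labelled KO-2 was the one line that overlapped no other. HAS2, a hyaluronan synthase, departed in line KO-1 by 1.17 in replicate 1 and 1.22 in replicate 2. Its counts there were 254 and 534, beside 60.7 to 184 in the other libraries, and HAS2-AS1 overlaps it. CASC9, a long noncoding RNA, was low in control line 2, with 29.3 and 28.3 beside 80.1 to 158 elsewhere, and departed by -1.28 and -1.41. TRPA1, a cation channel, was high in control line 2, with 490.4 and 461 beside 78.6 to 449 elsewhere, and MSC-AS1 overlaps it. SDC2, a heparan sulfate proteoglycan of the cell surface, was also high in control line 2, with 478 and 505 beside 154 to 278 elsewhere.

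NIPAL2, a relative of magnesium transporters, had 64.6 to 88.4 normalized counts in the controls, 28.2 and 38.4 in line KO-1 and 21.7 and 9.66 in the line labelled KO-2. Its difference between KO and control was -1.77 (SE 0.43, limma adjusted p 0.135), with no overlap of the groups and no call. Among members with a mean count of 50 or more, NIPAL2 and SNAI2 were followed as lowest by LINC01111, at -0.77 (limma adjusted p 0.704), and TNFRSF11B differed by 1.79 (limma adjusted p 0.270).

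Some departures differed in sign or size between replicates. EEF1D, a subunit of a translation elongation factor, departed by 1.43 in replicate 1 of line KO-1 and by -1.46 in replicate 2. It had 186 and 756 normalized counts in control line 1, 192 and 1262 in control line 2, 884 and 175 in line KO-1, and 179 and 167 in the line labelled KO-2. Its libraries thus fell into a high set of 3 and a low set of 5 that did not follow the lines. SCRIB, a scaffold of cell polarity, had 142 and 597 in control line 1 and departed by -1.71 and -0.17. NAPRT, an enzyme of NAD synthesis, had 110.3 and 62.4 in control line 1 and 61.0 and 117 in the line labelled KO-2, beside 9.46 to 26.6 in the other lines. It departed by 1.66 and 0.55 in control line 1 and by -1.79 and -0.98 in control line 2. The sign thus held between replicates and the size did not. A gap of over 1 between the replicates of some line was found in 22 of the 261 q arm genes with a mean count of 50 or more (8.43%) and in 4 of the 143 on the p arm (2.80%), beside 4.89% of all genes tested with that mean. The largest gap was that of EEF1D in control line 2, at 2.71.

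**Figure D5:**
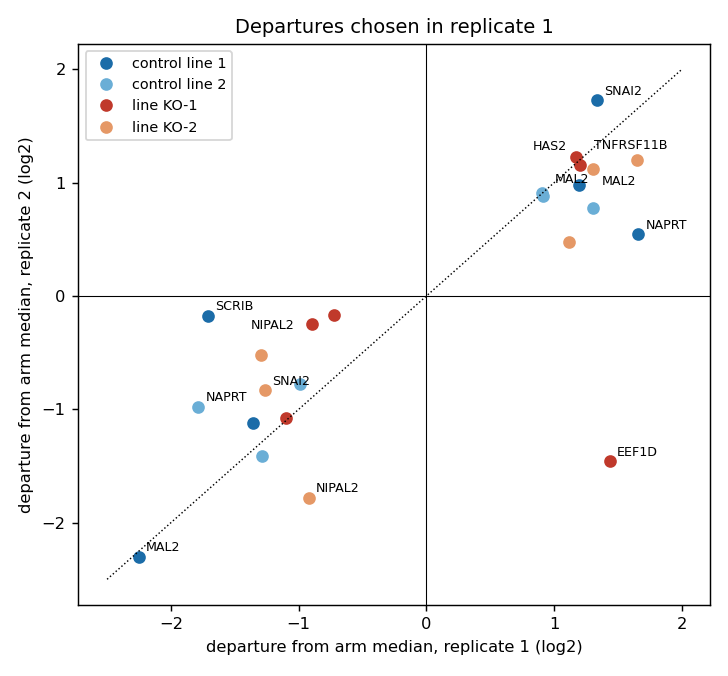
Departure of a gene from the median of its arm (log2) in replicate 1 (x axis), where the 24 gene and line combinations were chosen, and in replicate 2 (y axis), which entered the choice only through the minimum and the mean count. Colours mark the line, and the dotted line marks equal values. All but EEF1D in line KO-1 (1.43 and -1.46) have the same sign in both replicates.

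MYC departed from the q arm by more than most of its genes in control line 1 and by less than most in the other 3 lines. It had 2591 and 2257 normalized counts in control line 1, 2130.3 and 1901 in control line 2, 2688 and 2165 in line KO-1, and 2424 and 1683 in the line labelled KO-2. The lines overlapped, and replicate 1 was the higher library in each of them. Its departure was 0.21 in control line 1, -0.074 in control line 2, -0.11 in line KO-1 and -0.027 in the line labelled KO-2. Of the 261 q arm genes with a mean count of 50 or more, 29.5% departed by more in control line 1, 59.0% in control line 2, 60.5% in line KO-1 and 91.2% in the line labelled KO-2. In the line labelled KO-2 its departure was thus among the smaller ones of the arm.

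The measured neighbours of MYC varied in how they differed between lines. TRIB1, a pseudokinase upstream of it in gene order, had 535 and 486 normalized counts in line KO-1 and 193 to 351 in the other libraries. CCAT1, a long noncoding RNA, had 1.84 and 3.12 in control line 1 and 16.5 and 36.2 in the line labelled KO-2. PVT1, the noncoding gene next to MYC, had 429 and 447 in line KO-1 and 323.5 to 435 elsewhere, with a departure of 0.0013 in line KO-1. CYRIB, a regulator of the actin cytoskeleton, had 2152 and 2352 in line KO-1 and 1440.4 to 1661 elsewhere. ASAP1, a GTPase-activating protein, had 2137 and 1785 in the line labelled KO-2 and 2081 to 3957 elsewhere. MIR1204 lies within PVT1, and reads of the 2 cannot be told apart without strand and transcript information. Of 10 tested dimer partners and antagonists of MYC, 0 were called between KO and control by limma, with 0 at an unadjusted p under 0.05. Of 24 tested MYC target genes, 0 were called and 2 had an unadjusted p under 0.05 (background 11.5%), and their median difference was -0.16.

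No member met the limits set here for a gene at the floor of detection in 1 line and at a clear level in another. At most 3 reads in both libraries of 1 line together with a mean of 50 or more in another was seen in 0 of the 501 members and in 20 of the 14040 genes tested (0.142%). BLK on the p arm came near these limits. It had 1.57 and 0 normalized counts in line KO-1 and 33.1 and 57.2 in control line 1, where its mean was 45.2.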

How the data were processed

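Polyadenylated RNA of 8 libraries, 2 from each of 4 lines, was measured. The deposited values are a normalized signal per gene on a linear scale, called a normalized read count here. Per the submitters' processing notes, the authors used fastp 0.23.2, HISAT2 2.2.1, featureCounts 2.0.1 and DESeq2 2.11.40.8 with a GRCh38 build. The annotation and the use of strand in counting are not given in the sources used here, so overlapping and antisense genes are uncertain. All deposited values (100%) were whole multiples of 1 unit per library, within a relative tolerance of 1e-06, so whole reads were recovered for edgeR and DESeq2.

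Chromosome, arm and gene order came from RefSeq (GRCh38.p14), where 27745 of 28395 identifiers matched and 650 did not. No coordinates are given and no sequence is printed. Members and lists were chosen with earlier results of these data known. Tests used limma on log2(value + 1) over the 14040 genes with a value of 10 or more in 2 or more libraries, with Benjamini-Hochberg adjustment over all of them, and understate changes of low genes. KO against control took the line as a random block (correlation 0.33). For comparisons of lines, 1 model held a separate mean for every line. The fits were tried on simulated data in which genes varied independently and, for KO against control, lines of a group differed little. Arms that shift together between lines of a group were not simulated.

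The genes named were ANXA4, the boundary genes and MYC, the KO against control extremes and the replicate 1 departures. Also chosen were neighbours of MYC and the centromere, block ends, and list members of highest mean and widest range. Not all of these are named here. The replicate numbers come from the titles. Replicate differences correlated at 0.285 to 0.501 over the 6 pairs of lines. Same-numbered libraries were therefore also read together, and the replicate number was a block in an alternative fit. The main fits left the replicate number out. Replicates were not repeats of 1 library (chi-square per degree of freedom 18.8 to 72.3). Alternatives covered the pseudocount, filter, scaling, replicate block, tool, each library left out and the mean in place of the median.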

Additional observations from a re-analysis of the deposited data

Results flagged for a closer look

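LRATD2 was flagged for 1 value that stood apart within its group. Among its 4 KO-labelled libraries, the gap between the lowest, replicate 2 of the line labelled KO-2 at 949 normalized counts, and the nearest, at 1635, took up 0.855 of the range of the group, above the 95% limit of Dixon's test for 4 samples. Chance passes this limit in about 1 of 20 groups. That library was not below any control, the highest of which was 555. LRATD2 was not the only member with such a value. EEF1D had 884 normalized counts in replicate 1 of line KO-1 and 167 to 179 in the other KO-labelled libraries.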

How the results depend on the processing

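The medians of the arms kept their sign in every line under each alternative run: pseudocounts of 0.1 and 10, no filter, a mean of 50 or more, equal library totals, TMM scaling, the mean over genes and each library left out. In control line 1 the p arm was -0.45 with a pseudocount of 10, -0.42 with no filter, -0.46 with equal totals and -0.46 as a mean, with -0.49 to -0.47 on leaving out a library. Its q arm was -0.10 with no filter and -0.066 with equal totals (-0.095 to -0.060 without a library). In control line 2 the p arm was 0.051 for genes with a mean of 50 or more (0.055 to 0.086 without a library), and the q arm was -0.085 with no filter, -0.076 with equal totals and -0.075 as a mean (-0.068 to -0.047). In line KO-1 the p arm was 0.056 with a pseudocount of 10, 0.032 with no filter, 0.090 for genes with a mean of 50 or more and 0.092 with equal totals (0.062 to 0.095), and the q arm was 0.22 with a pseudocount of 10 and 0.26 with equal totals (0.23 to 0.26). In the line labelled KO-2 the p arm was 0.31 with no filter, 0.32 with equal totals and 0.30 as a mean (0.32 to 0.37), and the q arm was -0.12 with equal totals (-0.12 to -0.091). No scaling moved the median of all genes by over 0.1. The departure of MYC in line KO-1 ran from -0.24 without that line's replicate 1 to 0.011 without its replicate 2. For the line labelled KO-2 it likewise ran from -0.23 to 0.18. For control line 1 it was 0.12 without that line's replicate 1 and 0.30 without its replicate 2. For control line 2 the same values were -0.15 and -0.0035. MYC was higher in replicate 1 of every line, so leaving out 1 library mixes this replicate difference into the departure. Read within same-numbered libraries, line KO-1 stood at -0.12 in both replicates, with no change of sign. The line labelled KO-2 stood at 0.070 in replicate 1 but at -0.13 in replicate 2. Control line 1 moved from 0.17 in replicate 1 to 0.26 in replicate 2. Control line 2 moved from -0.14 to -0.019.

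Counts of calls moved more. With the replicate number as a block, 0 members were called between KO and control (114 at an unadjusted p under 0.05), and 203, 50, 186 and 200 in control line 1, control line 2, line KO-1 and the line labelled KO-2. KO against control gave 3 with no filter, 0 with equal totals (106 at an unadjusted p under 0.05), 106 with edgeR, 137 with DESeq2 (1772 of all 14040 genes), 107 with a mean per line and 25 without the line labelled KO-2. DESeq2 called 20 members in control line 2 (409 of all genes) and 95 in line KO-1 (1279 of all genes). Without 1 library the counts ran from 0 to 2 for KO against control, 13 to 137 for control line 1, 2 to 8 for control line 2, 4 to 96 for line KO-1 and 32 to 77 for the line labelled KO-2, where a lone library was assumed to vary like the others. Counts fell by over 1.5 times in all lines without either library of control line 1, and in line KO-1 and the line labelled KO-2 without a library of their own or, for the latter, of line KO-1. Without replicate 1 of line KO-1 control line 1 had 77 calls, and without replicate 1 of the line labelled KO-2 line KO-1 had 96. Control line 2 had 2 calls without its own replicate 2, 3 without either library of line KO-1 and 8 without either library of the line labelled KO-2. The cause was not tested.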
